A study of Mus musculus with 6 samples.

Results

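Aminoacyl-tRNA synthetases join each amino acid to its tRNA, the step that fixes the genetic code before the ribosome. Mammalian cells keep largely separate sets of these enzymes for the cytosol and for mitochondria, both encoded in the nucleus. The mitochondrial enzymes carry names ending in 2, while Gars and Kars each encode both the cytosolic and the mitochondrial form. Several cytosolic enzymes are held together with scaffold proteins in the multi-synthetase complex, and haematopoietic stem cells are known for a low and tightly held rate of protein synthesis. The genes were taken by symbol, as all entries with a one-letter amino acid code followed by ars or ars2, together with Eprs, Farsa and Farsb. This gave 37 genes of the 21851 in the tables, 20 cytosolic and 17 mitochondrial by name, and all 37 passed the filter on low values, which 10676 genes passed.

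Bone marrow cells of wild-type (WT) mice were sorted for a long-term haematopoietic stem cell (LT-HSC) phenotype. One group of 3 libraries came from animals kept on a high cholesterol diet (HCD) for 3 months, and the other 3 from animals on control diet (CD). The sorting gate took lineage-negative cells with c-Kit and Sca1 and without CD34 and CD135. Strain, age and sex are not given in the labels, nor is it said whether a library is 1 animal or a pool, so each p-value covers the spread among the libraries alone, which may be technical. Expression was deposited as FPKM, a read density scaled to transcript length and to depth. Low values came in steps of whole reads, which put the depth at 20010000, 19910000 and 19100000 reads or fragments in HCD replicates 1, 2 and 3 and at 18850000 to 19180000 in the CD libraries. At the median transcript length of the tested genes, 1 FPKM then stands for about 65 reads, and the synthetase gene with fewest, Pars2, had an estimated 150 reads in its lowest library.

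The gate was checked against its transcripts. Kit and Ly6a (SCA1) were present, but Cd34 stood at 458 ± 17.0 FPKM in HCD and 471 ± 15.4 in CD (SD, n = 3 each), and Flt3 (CD135) at 104 ± 4.12 in HCD and 114 ± 1.19 in CD. Slamf1 (CD150) was at 3.41 ± 0.27 FPKM in HCD and 1.79 ± 0.47 in CD. The cells are for this reason described as labelled LT-HSC. HCD replicate 2 stood apart from the other HCD libraries. The SD over 6175 genes of its log2 difference from HCD replicates 1 and 3 was 0.201 and 0.221, against 0.098 between those replicates and 0.096 to 0.105 among the CD libraries.

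The promoters of Iars and Tars, which fell under HCD, share a short sequence, and it is shown first. TGATGCAA, or TTGCATCA on the other strand, is the core of the response element bound by ATF4 with C/EBP partners, through which amino acid shortage raises transcription of many synthetase genes. RefSeq promoter windows of 300 bases on GRCm38.p6, from 250 bases before to 50 after the gene start, were found for 27 of the 37 genes. The letters were in the windows of 4 of these 27, and those of the genes for isoleucyl-, threonyl- and tyrosyl-tRNA synthetase are shown. Among all 32851 windows 0.895% held them. The motif was chosen with results of these data known. The windows below run 5′ to 3′ on the gene's strand, and capitals mark the motif.
Iars, chr13:49682126-49682155, plus strand: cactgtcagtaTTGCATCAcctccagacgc
Tars, chr15:11399655-11399684, minus strand: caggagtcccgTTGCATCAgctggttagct
Yars, chr4:129189895-129189924, plus strand: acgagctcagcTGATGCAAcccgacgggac
With the RefSeq gene start as base 1, the first motif base lies at 8 in Iars, -15 in Tars and 4 in Yars. The gene positions given below for Iars and Tars are from GENCODE, whose starts differ from these. Iars and Tars read the motif on one strand and Yars on the other. The looser form TGATGNAA, which includes the first motif, was in 3.97% of all windows and in those of 5 of the 27 genes. The gene it added was Gars.
Gars, chr6:55037960-55037989, plus strand: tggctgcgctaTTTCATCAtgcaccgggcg
The E-box CACGTG, a sequence that MYC and its partners can bind, was in 7.15% of all windows and in those of 5 of the 27 genes, among them Iars, Tars, Farsb and Ears2. None of the 3 sequences was in the windows of Eprs and Qars, which also passed the test. No E-box overlapped another motif in these genes. Windows of the other 10 genes were not analysed here. A match says only that the letters are there.

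Setting HCD against CD addresses which synthetase transcripts differ after the cholesterol-rich diet. Tars, Iars, Aars and Eprs fell, with log2 changes of -0.23 to -0.31, and Qars rose by 12.1% in mean FPKM. All 5 are cytosolic, and none of the 17 mitochondrial genes passed the test. By limma on log2(FPKM + 1), with adjustment over all 10676 tested genes, 13.9% of genes passed an adjusted p of 0.05, 7.66% lower and 6.28% higher under HCD. The 5 of 37 synthetase genes are 13.5%, close to that background. Of the cytosolic genes 25% passed, and 20% passed as lower. No test of this difference between lists was made.

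Tars encodes threonyl-tRNA synthetase (chromosome 15, 11382301 to 11399665, GRCm38). It stood at 33.5, 33.7 and 33.2 FPKM in HCD replicates 1, 2 and 3, against 39.8, 40.1 and 39.0 FPKM in CD replicates 1, 2 and 3. The diets did not overlap, and the HCD libraries lay close together. The log2 change was -0.24 ± 0.04 (SE; limma adjusted p = 0.0102), and the difference in mean FPKM was -15.6%. The adjusted p ran from 0.00311 to 0.0556 over 15 alternative fits, of which 13 kept the call.

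Iars encodes isoleucyl-tRNA synthetase, a member of the multi-synthetase complex (chromosome 13, 49682100 to 49734267). Its FPKM was 30.02, 34.79 and 30.79 in the HCD libraries and 38.43, 40.54 and 38.12 in the CD libraries. HCD replicate 2 lay closest to the CD libraries but below all of them. The log2 change was -0.29 ± 0.06 (limma adjusted p = 0.0214), and it passed in 9 of 15 alternative fits. The annotation places 2 small nucleolar RNA genes within Iars on the same strand.

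Aars encodes alanyl-tRNA synthetase, an enzyme with its own editing site against mischarging (chromosome 8, 111033144 to 111057664). It had 20.3, 23.4 and 19.4 FPKM in the HCD libraries, against 27.0, 26.4 and 25.1 in the CD libraries. The groups did not overlap, and HCD replicate 2 was again the highest of its diet. The log2 change was -0.31 ± 0.07 (limma adjusted p = 0.0285), which did not pass when libraries were rescaled by trimmed-mean (TMM) factors (limma adjusted p = 0.0556). It passed in 6 of 15 alternative fits. On the same strand the Aars gene overlaps Exosc6, an RNA exosome subunit gene, by 1326 bases. Exosc6 averaged 24.1 ± 2.53 FPKM in HCD and 30.9 ± 1.40 in CD (log2 change -0.35, limma adjusted p = 0.0219), so reads shared between the genes could count for either, and the value of Aars is uncertain to that extent.

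Eprs encodes the fused glutamyl- and prolyl-tRNA synthetase, the longest enzyme of the complex (chromosome 1, 185363044 to 185428360). It stood at 39.6, 45.7 and 41.0 FPKM in the HCD libraries and at 49.2, 51.3 and 47.7 in the CD libraries. The lowest CD library was above the highest HCD library, replicate 2, by a small margin. The log2 change was -0.23 ± 0.06 (limma adjusted p = 0.0417), and it did not pass with TMM factors (adjusted p = 0.0966). It passed in 5 of 15 alternative fits.

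Qars, the glutaminyl-tRNA synthetase gene and also a complex member, went the other way (chromosome 9, 108507706 to 108515941). It had 70.1, 73.9 and 71.3 FPKM in the HCD libraries and 64.0, 64.6 and 63.5 in the CD libraries. Every HCD library was above every CD library, with replicate 2 the highest. The log2 change was 0.16 ± 0.04 (limma adjusted p = 0.0365), and it passed in 8 of 15 alternative fits. Mammalian mitochondria use no glutaminyl-tRNA synthetase of their own, so Qars has no partner among the genes ending in 2.

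**Figure D1:**
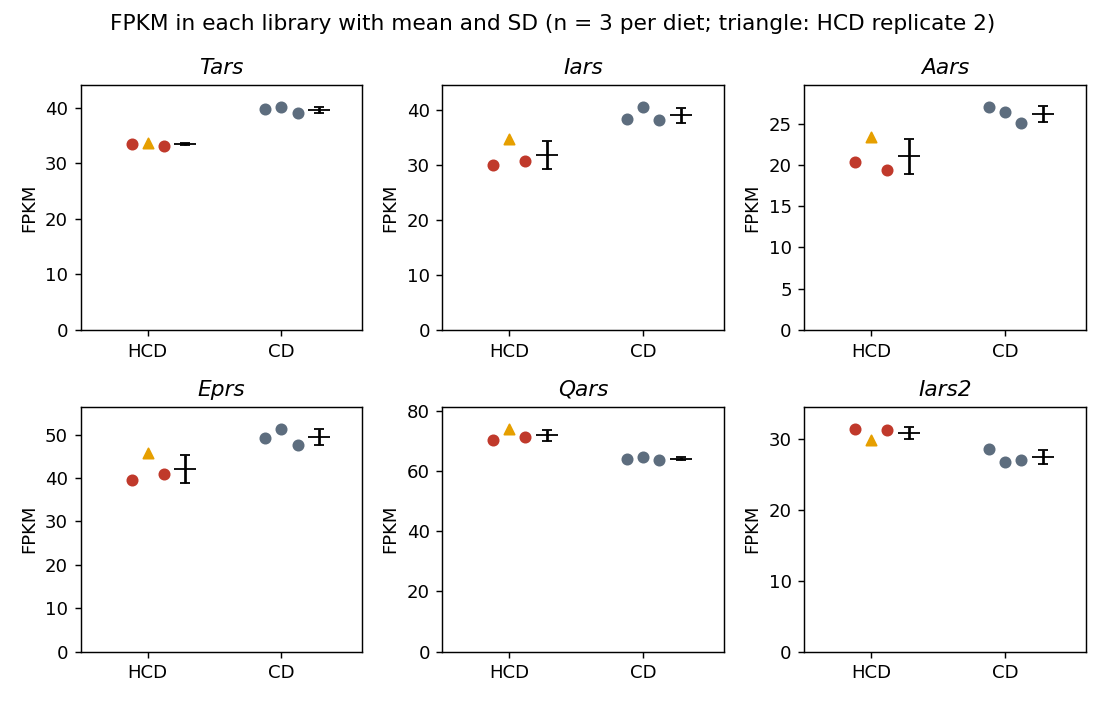
FPKM of the 5 synthetase genes that passed the test and of Iars2, the mitochondrial gene with the smallest p, in each HCD library (left; triangle, replicate 2) and CD library (right), with mean and SD (n = 3). The diets do not overlap in any panel, and HCD replicate 2 is the HCD library nearest to the CD libraries in every panel but that of Qars.

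These calls rest on few libraries. Without HCD replicate 2, 16 of the 37 genes passed, 12 lower and 4 higher, where 25.2% of all tested genes passed (14.2% lower, 11% higher). The 5 calls above were among the 16. Of the 12 lower, 11 were cytosolic, adding Dars, Gars, Kars, Mars, Rars, Wars and Yars, and 1 was mitochondrial. The 4 higher were Qars, Farsa, Iars2 and Lars2. Without CD replicate 1 or CD replicate 2 no synthetase gene passed, where 4.1% and 5.19% of all tested genes did. Tars alone passed without CD replicate 3 or HCD replicate 1, where the background was 4.79% and 6.49%. Without HCD replicate 3, Tars and Yars2 passed, beside 10.2% of all tested genes. With the replicate number as a block, 7 genes passed as lower, adding Mars (adjusted p = 0.0483), Wars (0.0398) and Cars2 (0.0497), and Qars alone as higher, where 17.5% of all tested genes passed (9.67% lower, 7.88% higher). With the trend of expression against transcript length removed, only Tars (adjusted p = 0.0284) kept its call, and Aars (0.125), Iars (0.0678), Eprs (0.213) and Qars (0.0521) lost theirs, while Iars2 (0.0205) and Lars2 (0.0467) passed as higher. The background in that fit was 12.5% (5.99% lower, 6.5% higher). Across all genes longer transcripts were lower under HCD (Spearman rho -0.25 over 10354 genes, -0.15 without HCD replicate 2). Across the 37 synthetase genes rho was -0.06, with -0.20 over the 20 cytosolic and 0.21 over the 17 mitochondrial genes. These are descriptions over genes, which are not independent.

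**Figure D2:**
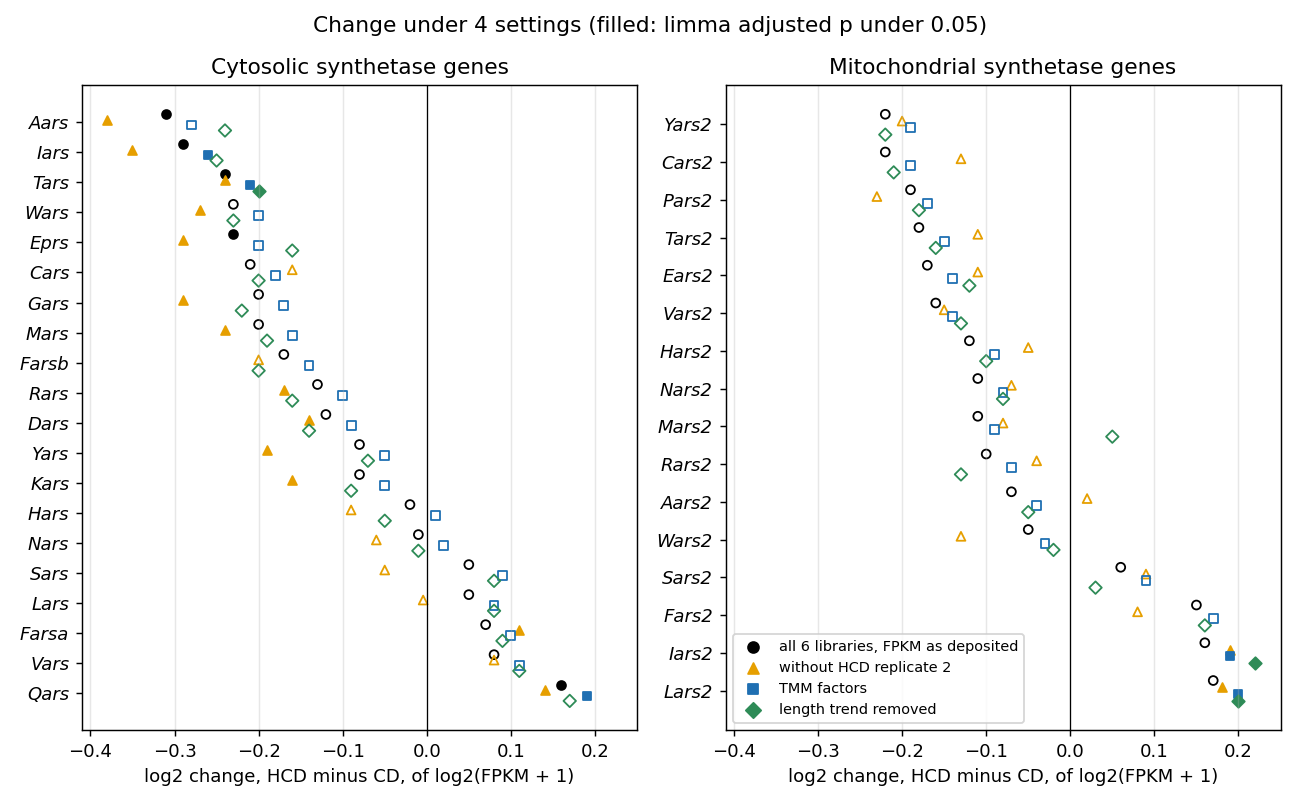
The log2 change (HCD minus CD) of 36 of the 37 synthetase genes with all 6 libraries, without HCD replicate 2, with TMM factors and with the length trend removed. Filled symbols passed an adjusted p of 0.05, as 15 of the genes drawn did without HCD replicate 2 and 5 with all libraries.

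Among the genes that did not pass, most values also lay below CD. The log2 change was negative in 28 of the 37 genes, 15 of 20 cytosolic and 13 of 17 mitochondrial, against 6186 of the 10676 tested. The median log2 change was -0.13 for the cytosolic genes, -0.11 for the mitochondrial genes and -0.03 for all tested genes. With a pseudocount of 0.1 it was -0.13 for both sets and -0.04 for all tested genes. The medians of both sets stayed below 0 under every scaling and left-out library tried. The groups of libraries did not overlap in 17 of the 37 genes, 13 lower and 4 higher under HCD, where 37.7% of tested genes had no overlap (22.7% lower, 15% higher). In bulk RNA, fewer cells that express a gene and less of its RNA per cell cannot be told apart.

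The 8 enzymes of the multi-synthetase complex had 2 calls lower (Iars, Eprs), 1 higher (Qars) and a median log2 change of -0.13. Among all tested genes 7.66% were called lower and 6.28% higher. Mars, the methionyl-tRNA synthetase gene, missed the threshold narrowly, at 20.9, 23.0 and 21.1 FPKM in the HCD libraries and 24.2, 25.1 and 25.5 in the CD libraries (log2 change -0.20 ± 0.06, limma adjusted p = 0.0519). It overlaps Ddit3 by 68 bases on the opposite strand. Dars and Rars, for aspartyl- and arginyl-tRNA synthetase, had log2 changes of -0.12 and -0.13 with no overlap between diets. Kars and Lars, for the lysyl and leucyl enzymes, had values of -0.08 and 0.05, and their diets overlapped. The 3 scaffold genes did not pass in the fit of all 6 libraries. Aimp1 averaged 74.6 ± 9.11 FPKM in HCD and 64.7 ± 2.49 in CD (limma adjusted p = 0.138). Aimp2 averaged 30.8 ± 2.66 FPKM in HCD and 35.7 ± 1.59 in CD (limma adjusted p = 0.0735), and it passed as lower with the replicate block (0.026), with the length trend removed (0.0271) and without HCD replicate 2 (0.00488). Eef1e1, the third scaffold gene, averaged 32.7 ± 2.43 FPKM in HCD and 38.0 ± 2.08 in CD (limma adjusted p = 0.0651). All 3 had an unadjusted p under 0.05 in limma, as had 30.9% of all tested genes.

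Outside the complex, 12 cytosolic genes had a median log2 change of -0.12. Wars, whose enzyme charges tryptophan and whose gene is also known to respond to interferon, had 29.1, 34.9 and 34.6 FPKM in the HCD libraries against 38.2, 40.3 and 37.1 in the CD libraries. All HCD libraries were lower, replicate 1 most of all, and the change of -0.23 ± 0.07 did not pass (limma adjusted p = 0.076). Gars, for the glycyl enzyme of both compartments, had 51.6, 61.1 and 49.3 FPKM in the HCD libraries and 62.2, 59.4 and 64.7 in the CD libraries. HCD replicate 2 lay within the CD range and the other HCD libraries below it. Cars and Farsb also lay below CD in every HCD library without passing, at log2 changes of -0.21 and -0.17. Vars, for valyl-tRNA synthetase, was above CD in every HCD library, at 107, 106 and 103 FPKM in HCD against 101, 98.8 and 97.9 in CD (limma adjusted p = 0.226). Farsa, a phenylalanyl enzyme subunit gene, averaged 72.7 ± 3.74 FPKM in HCD and 69.2 ± 1.37 in CD, and its diets overlapped. So did those of Sars and Nars, for the seryl and asparaginyl enzymes, with log2 changes of 0.05 and -0.01 (0.02 for Nars with TMM factors). Class I and class II enzymes are the 2 unrelated structural families of synthetases. They had 2 lower and 1 higher of 19 and 2 lower and 0 higher of 18, with medians of -0.13 and -0.11. Among all tested genes 7.66% passed as lower and 6.28% as higher. Eprs, which joins an enzyme of each class, was counted in class I.

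Among the mitochondrial genes, Iars2 and Lars2, for the isoleucyl and leucyl enzymes, came nearest to the threshold, and both were above CD. Iars2 (chromosome 1, 185284726 to 185329396) had 31.4, 29.8 and 31.3 FPKM in the HCD libraries and 28.6, 26.7 and 27.0 in the CD libraries (log2 change 0.16 ± 0.05, limma adjusted p = 0.0655). Lars2 had 18.4, 19.0 and 20.0 FPKM in the HCD libraries and 16.8, 17.2 and 16.6 in the CD libraries (0.17 ± 0.05, limma adjusted p = 0.0675). Neither gene's diets overlapped, and both passed with TMM factors (adjusted p = 0.0366 and 0.043), where 12.9% of all tested genes passed (5.59% lower, 7.35% higher). Iars2 overlaps Rab3gap2 on the opposite strand by 2034 bases. Yars2, Tars2 and Vars2 lay below CD in every HCD library without passing, at log2 changes of -0.22, -0.18 and -0.16. Yars2 had 13.37, 13.85 and 16.02 FPKM in the HCD libraries and 16.10 FPKM in the lowest CD library, so that HCD replicate 3 nearly met the CD range (means 14.4 ± 1.41 in HCD and 16.9 ± 0.97 in CD). The diets overlapped for the other mitochondrial genes. Fars2, for the phenylalanyl enzyme, averaged 12.9 ± 1.11 FPKM in HCD and 11.6 ± 0.56 in CD, and Sars2, for the seryl enzyme, had a log2 change of 0.06. Aars2, Mars2, Nars2 and Rars2 had values of -0.07 to -0.11, and Mars2 was at 0.05 with the length trend removed. The count of 0 calls among 17 mitochondrial genes is from limma. At an unadjusted p under 0.05 there were 6 of 17 mitochondrial and 12 of 20 cytosolic genes, beside 30.9% of all tested genes.

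The cytosolic and mitochondrial genes differed in where HCD replicate 2 lay. In 17 of the 20 cytosolic genes it was the highest of the 3 HCD libraries, and in 11 of the 17 mitochondrial genes the lowest. Over all tested genes it was the highest in 36.3% and the lowest in 46.9%. In all 8 enzymes of the multi-synthetase complex it was the highest. The median difference from the CD mean on the log2 scale was -0.16, -0.04 and -0.15 for the cytosolic genes in HCD replicates 1, 2 and 3. For the mitochondrial genes it was -0.08, -0.19 and -0.07, and for all tested genes -0.02, -0.05 and -0.02. Yars, for cytosolic tyrosyl-tRNA synthetase, shows the pattern most plainly, with 22.2, 28.6 and 22.8 FPKM in the HCD libraries against 26.0, 25.5 and 25.8 in the CD libraries. Its HCD replicates 1 and 3 were below all CD libraries and its replicate 2 above them. Cars2, for the mitochondrial cysteinyl enzyme, had 20.0, 15.9 and 18.5 FPKM in the HCD libraries and 21.4, 19.5 and 22.8 in the CD libraries, with HCD replicate 2 the lowest of all. The split was seen in these values and was not tested.

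**Figure D3:**
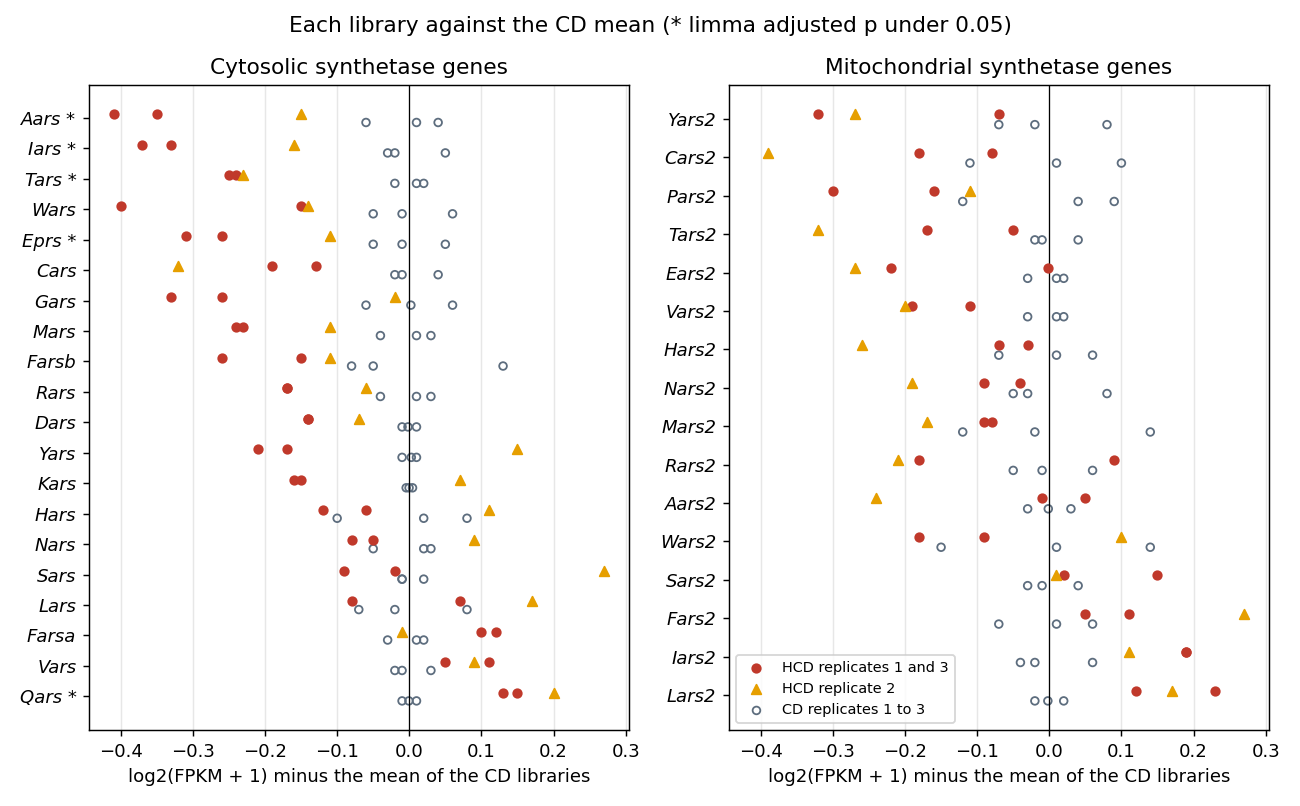
The log2(FPKM + 1) of each library minus the mean of the CD libraries, for the 20 cytosolic genes (left) and 16 of the 17 mitochondrial genes (right), ordered by change. HCD replicate 2 (triangles) lies to the right of the other HCD libraries in 17 of the 20 cytosolic genes and to their left in 11 of the 16 mitochondrial genes drawn.

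For 14 amino acids the tables hold 1 cytosolic and 1 mitochondrial enzyme gene, and their changes can be set side by side. In 9 of these pairs the cytosolic gene had the lower log2 change and in 5 the higher, with a median difference of -0.03. The count of 9 ran from 7 to 10 over the fits that each leave out 1 library. Both partners were below CD in 10 pairs and above it in 2, and in 2 pairs the signs differed. The widest gap was that of isoleucine. The FPKM of Iars over that of Iars2 was 0.955, 1.17 and 0.984 in the HCD libraries and 1.35, 1.52 and 1.41 in the CD libraries. The Iars level was thus above the Iars2 level in every CD library and below it in HCD replicates 1 and 3. Valine went the other way, and Vars over Vars2 was 8.73, 8.67 and 7.93 in the HCD libraries and 7.06, 6.96 and 7.14 in the CD libraries. In these 2 of the 14 pairs the ratios did not overlap between diets. Among single tested genes 37.7% had no overlap, but a share for ratios of gene pairs was not computed. The isoleucine and valine ratios were picked out after their values were seen.

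**Figure D4:**
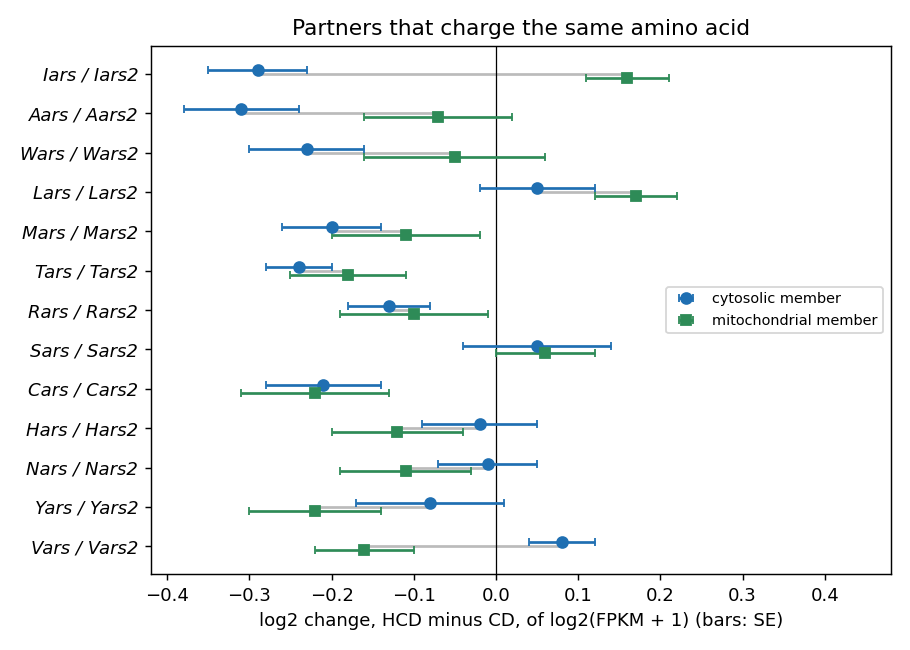
The log2 change (HCD minus CD, with SE) of the cytosolic (circles) and mitochondrial (squares) gene for 13 of the 14 amino acids, ordered by their difference. Isoleucine has the widest gap, with Iars at -0.29 and Iars2 at 0.16, and valine the widest in the other direction, with Vars at 0.08 and Vars2 at -0.16.

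In level, per length and over all 6 libraries, the cytosolic genes had a median of 41.1 FPKM and the mitochondrial genes 12.2, beside 12.7 for all tested genes. Kars had the highest mean at 107 FPKM, above 94.8% of tested genes, and Vars the next at 102, though Vars was above Kars in HCD replicates 1 and 3. Dars (79.7) and Nars (79.2) followed and did not differ beyond their spread. The lowest were Pars2 (3.00), Wars2 (2.89) and Ears2 (2.77 FPKM), for the mitochondrial prolyl, tryptophanyl and glutamyl enzymes, whose library ranges overlapped. The cytosolic gene had the higher mean in 13 of 14 pairs, with a median ratio of 3.45 and the largest for asparagine, where Nars stood 16.9 times above Nars2. Cysteine was the exception, with Cars at 11.5 FPKM and Cars2 at 19.7 and a ratio between 0.536 and 0.653 in all 6 libraries. Cars2 overlaps the gene Naxd on the opposite strand by 984 bases. The library kit keeps the strand, per the labels' protocols, but whether it was used in counting is not given in the sources used here. Likewise Hars and Hars2 lie head to head on chromosome 18 and overlap by 198 bases. Hars had a log2 change of -0.02, or 0.01 with TMM factors, and Hars2 of -0.12.

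The genes that work beside the synthetases were taken as lists. Of 8 genes for mitochondrial charging and its partners (Gatb, Gatc, Qrsl1, Mtfmt, Trnt1, Tufm, Gfm1, Tsfm) and of 7 synthetase-like and editing genes (Tarsl2, Aarsd1, Prorsd1, Dtd1, Dtd2, Sepsecs, Pstk) none passed limma, with medians of -0.10 and 0.02, and 7 of the 8 partners were below CD. Tufm passed without HCD replicate 2 (limma adjusted p = 0.0369). At an unadjusted p under 0.05 there were 0 and 1, beside 30.9% of all tested genes. Of 26 genes of the amino acid response that ATF4 drives, 22 were tested, of which 2 rose and 2 fell. Among all tested genes 6.28% passed as higher and 7.66% as lower. The median log2 change of the list was -0.02. With the replicate block 3 passed as higher and 4 as lower, adding Ddit3 (limma adjusted p = 0.0364), Aldh18a1 (0.0364) and Slc1a5 (0.00859). In that fit 17.5% of all tested genes passed (7.88% higher, 9.67% lower). Without HCD replicate 2 there were 5 higher and 6 lower, where 25.2% of all tested genes passed. With any other single library left out there were at most 1 higher and 2 lower, where 4.1% to 10.2% of all tested genes passed. Slc7a1, a transporter of cationic amino acids, averaged 12.03 ± 0.46 FPKM in HCD and 16.41 ± 0.43 in CD (limma adjusted p = 0.00364). Mthfd2, a mitochondrial folate enzyme gene, averaged 9.52 ± 0.12 FPKM in HCD and 11.8 ± 0.26 in CD (limma adjusted p = 0.0164). The 2 that rose were Nupr1, a stress-induced chromatin protein gene, at 5.74 ± 0.26 FPKM in HCD and 3.82 ± 0.43 in CD (limma adjusted p = 0.0111), and Sesn2. Sesn2, which encodes a leucine sensor, averaged 5.10 ± 0.19 FPKM in HCD and 3.82 ± 0.51 in CD (limma adjusted p = 0.0441). Asns, the asparagine synthetase gene known as a sensitive target of this response, averaged 6.64 ± 0.68 FPKM in HCD and 6.45 ± 0.36 in CD. Atf4 itself averaged 131 ± 27.3 FPKM in HCD and 110.4 ± 4.25 in CD, without passing (limma adjusted p = 0.292). Its HCD replicate 2 lay below every CD library and the other HCD libraries above them, at 141 and 152 FPKM, and without that replicate it passed (log2 change 0.40, limma adjusted p = 0.000372). Of 14 genes for the kinase that senses uncharged tRNA, its partners and amino acid sensors of mTORC1, 13 were tested. Of these, 2 passed as higher and 1 as lower, beside 6.28% and 7.66% of all tested genes. There Gcn1l1, whose protein activates that kinase, averaged 20.9 ± 0.72 FPKM in HCD and 26.2 ± 0.18 in CD (limma adjusted p = 0.00708, or 0.0843 with the length trend removed). Ppp1r15a, whose product reverses the kinase's mark and which is also an early response gene, averaged 154 ± 37.1 FPKM in HCD and 93.3 ± 2.82 in CD (limma adjusted p = 0.0221). The third call of that list was Sesn2. With any library but HCD replicate 2 left out, this list had 0 higher and 1 lower, where 4.1% to 10.2% of all tested genes passed. Eif2ak4, the kinase gene itself, averaged 13.9 ± 1.70 FPKM in HCD and 14.3 ± 0.12 in CD.

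Other marker lists differed between the same libraries, in which 6.28% of all tested genes passed as higher and 7.66% as lower. All 10 myeloid progenitor markers were higher, or 9 with the length trend removed. Their summed levels were 1684 to 1853 FPKM in HCD against 901 to 929.8 in CD. Of 6 cycling genes 5 were lower, or 3 with the length trend removed, with sums of 765 to 771 FPKM in HCD against 881 to 899 in CD. The other, Ccnb1, was above CD in every HCD library without passing (limma adjusted p = 0.153). All 6 early response genes, which also answer to cell handling, were higher, with sums of 3627 to 4269 FPKM in HCD against 1740 to 1839 in CD. Of the megakaryocyte markers 3 of 3 tested were higher, or 2 with the length trend removed, with 77.1 to 92.4 FPKM in HCD against 47.6 to 51.1 in CD. With 1 library left out, the counts fell to as few as 8 higher myeloid, 1 lower cycling and 1 higher megakaryocyte gene. In the fits with these lowest counts 4.1% to 6.49% of all tested genes passed. With the length trend removed 6.5% of all tested genes passed as higher and 5.99% as lower. With the replicate block 9.67% passed as lower. Lymphoid markers summed to 268 to 312 FPKM in HCD and 312 to 346 in CD, nearly all of it Dntt, with Cd3e at 0, and 1 of 3 tested was lower, or 2 with the replicate block. Erythroid markers summed to 7.86 to 8.75 FPKM in HCD and 8.89 to 10.8 in CD, and 1 of 3 tested was lower. All 3 tested had negative log2 changes. Epor, an erythroid marker that was not tested, was above CD in every HCD library (1.33 ± 0.33 FPKM in HCD, 0.863 ± 0.02 in CD). The part of these differences in the synthetase values was not tested.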

How the data were processed

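Per the labels' protocols, RNA from sorted cells was purified on micro columns and made into strand-keeping mRNA libraries. The tools listed by the submitters' processing notes are StringTie, HISAT2 and fastp, with mm10 and GRCm38 as builds. No versions, roles or settings are stated there. The values the authors deposited were read as FPKM, judged by their size and steps, since the file headers give only sample names. Each table held 21878 rows, of which 27 with a date in place of a symbol (0.127% of the FPKM) were left out.

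Low values gave whole reads, within 0.02, in 54.2% of 1963 low genes and in 0% with wrong relative depths, and depth was read from genes with 1 annotated transcript. The test was limma 3.58.1 (R 4.3.3) on log2(FPKM + 1), with its trend and robust options, unpaired and two-sided, over genes reaching 1 FPKM in 3 or more libraries, with Benjamini-Hochberg adjustment over all of them and a threshold of 0.05. A pseudocount of 1 understates the change of low genes. No count model was used. The code was tested on simulated data. Positions are from GENCODE vM21 on GRCm38, promoter windows from RefSeq, and transcript length is the longest per gene, found for 97.0% of tested genes.

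The members and lists were chosen with earlier results of these data known. The members were described, in full where they passed the test, with the mitochondrial gene of smallest p. Same-numbered HCD and CD libraries deviated together from their group means (correlations 0.103, 0.292 and 0.166), though the labels state no pairing and some different-numbered pairs came close (up to 0.098). Calls with the number as a block are therefore given beside the synthetase, scaffold, amino acid response and sensor results where they differ. The single values of 1 gene and 1 promoter window are not reported here.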

Additional observations from a re-analysis of the deposited data

How the results depend on the processing

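With 4 synthetase genes lower and 1 higher under HCD in the reported fit, the count of lower genes was 2 without a filter, 2 with TMM factors, 1 with the length trend removed and 7 with the replicate block, and it ran from 0 to 12 over the fits that each leave out 1 library. The count of higher genes was 3 with TMM factors, 3 after quantile normalization, 2 with the length trend removed, 2 with that and the replicate block, and 0 in limma without trend and robust, and it ran from 0 to 4 with 1 library left out. Fits with a library left out have fewer samples. The cause of the shifts in these counts was not tested. All genes split into 670 higher and 818 lower as reported and 785 higher and 597 lower with TMM factors. Of the 10676 genes, 577 passed as lower without a filter, 640 with the length trend removed and 1032 with the replicate block. As higher, 821 passed after quantile normalization and 694 with the length trend removed. With that and the replicate block 848 passed as higher, and in limma without trend and robust 585 did. Among all genes, 2672 passed without HCD replicate 2 and 435 without CD replicate 1. With a filter of 5 FPKM, Ears2, Mars2, Nars2, Pars2 and Wars2 were no longer tested.

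Among the alternative values for single synthetase genes, 477 kept sign and side of the threshold, 34 lost a call, 25 gained one and 14 changed sign. None of those 14 was called. Hars was 0.01 and Nars 0.02 with TMM factors, and Mars2 was 0.05 with the length trend removed, alone or with the replicate block. With 1 library left out, Aars2 ran from -0.12 to 0.02, Hars from -0.09 to 0.03, Lars from -0.0043 to 0.12, Nars from -0.06 to 0.02, Sars from -0.05 to 0.13 and Wars2 from -0.13 to 0.02. Depth limits the low genes most, with an estimated 150 reads for Pars2 and 210 for Wars2 in their lowest libraries.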
